A study of Gallus gallus with 14 samples.

Results

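The glutamate receptors and glutamate transporters of the chick retina were described in 14 retinas, 7 from eyes that had worn a -10 D lens and 7 controls. Members were the genes whose symbols begin with GRIA, GRIK, GRIN or GRID and a digit, or are GRM, SLC1A or vesicular SLC17A symbols, a rule that used no measured value. They numbered 32 of 18631 genes in the deposited table, namely 4 AMPA, 4 kainate, 6 NMDA, 3 delta, 7 metabotropic, 6 uptake and 2 vesicular genes. The symbol rule also took GRID2IP, which encodes a scaffold that binds a delta receptor and is not itself a receptor. All birds were wild-type White Leghorn chicks. The lens group had a -10 D lens mounted before the eye from 3 days of age and was sampled after 6 days (retinas 46, 47, 48, 51, 53, 54 and 55). The control group comprised retinas 57, 58, 59, 62, 63, 64 and 65, and its labels give the strain, genotype and age of the lens group. The labels do not say whether each library came from a different bird, so the p-values measure the spread between these samples. They also do not say whether a control retina was the fellow eye of a treated bird.

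Glutamate carries the visual signal from photoreceptors to bipolar cells and from bipolar cells to amacrine and ganglion cells. AMPA, kainate and NMDA receptors are glutamate-gated cation channels, and metabotropic receptors act through G proteins, either raising calcium (group I) or dampening release and cyclic AMP (groups II and III). Vesicular transporters load glutamate into synaptic vesicles, and plasma membrane transporters on neurons and Müller glia clear it. A -10 D lens focuses the image behind the retina, and the chick eye responds by growing longer.

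Each retina gave 1 total RNA library. Values were in CPM, reads of a gene scaled to a common total that was larger than the reads in the listed genes. Depth, read from the step between low values, was 34.02 to 42.6 M reads in lens libraries and 32.3 to 38.8 M reads in control libraries (M, mega). Markers of the labelled tissue were present. The summed level of 8 photoreceptor markers was 1658 to 2250 CPM in lens and 1792 to 2187 CPM in control retinas, and that of 8 Müller glia markers was 893 to 1195 CPM in lens and 947 to 1121 CPM in control retinas. The 7 microglia and immune markers summed to 7.35 to 10.3 CPM in lens and 6.22 to 8.97 CPM in control retinas. Lens 48, lens 55 and control 65 had no more than 4.56 CPM of transcripts from the W chromosome, which only hens carry, while the other 11 libraries had 616 to 721 CPM. The labels give no sex.

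After 6 days of lens wear, the presynaptic receptor gene GRM7 was lower in lens retinas, and no other glutamate receptor or transporter gene passed the test. The GRM7 call was lost with each of 4 other scalings and was kept in 9 of 14 fits that left out 1 library. In limma across 11132 genes, 29 members were tested, 1 fell, 0 rose and 28 did not pass at a Benjamini-Hochberg adjusted p under 0.05. Among all tested genes, 1.84% fell and 0.916% rose by the same rule (2.76% in either direction), so the members' share of 3.45% lower rests on 1 gene. At an unadjusted p under 0.05, 9 members were lower and 1 was higher, or 31.0% lower, beside 12.5% lower and 3.67% higher of all tested genes. When only genes of at least 10 CPM were tested, 7 of 22 members were lower (31.8%) and 1 was higher by that rule. Of all genes tested there, 17.2% were lower and 4.85% higher. With each of 4 other scalings, 6 members were lower (20.7%) and 2 were higher by that rule, beside 6.67% to 7.82% lower and 6.05% to 6.84% higher of all tested genes. A per-gene exact permutation test called 0 members in either direction after adjustment, with 7 lower and 1 higher at an unadjusted p under 0.05. Over all tested genes it called 108 lower and 62 higher after adjustment, those whose groups did not overlap. It could therefore call no member, since the groups of every tested member overlapped. The members' log2 fold changes (lens minus control, on the log2(CPM + 1) scale) had a median of -0.066, beside -0.038 for all tested genes. Of the 29, 24 were below 0, beside 7241 of all 11132 tested genes (65%), and 19 were below that overall median. With 4 other scalings 18 or 19 of the 29 were below 0, while the median over all tested genes was -0.0089 to -0.00022. Under those scalings the share of calls over all genes that were higher was 53.3% to 59.7%, beside 33.2% as deposited. No tested member had lens and control values that did not overlap, while 0.97% of all tested genes were lower and 0.557% higher without overlap. In whole retinas, fewer cells of a type and less RNA per cell cannot be told apart.

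**Figure D1:**
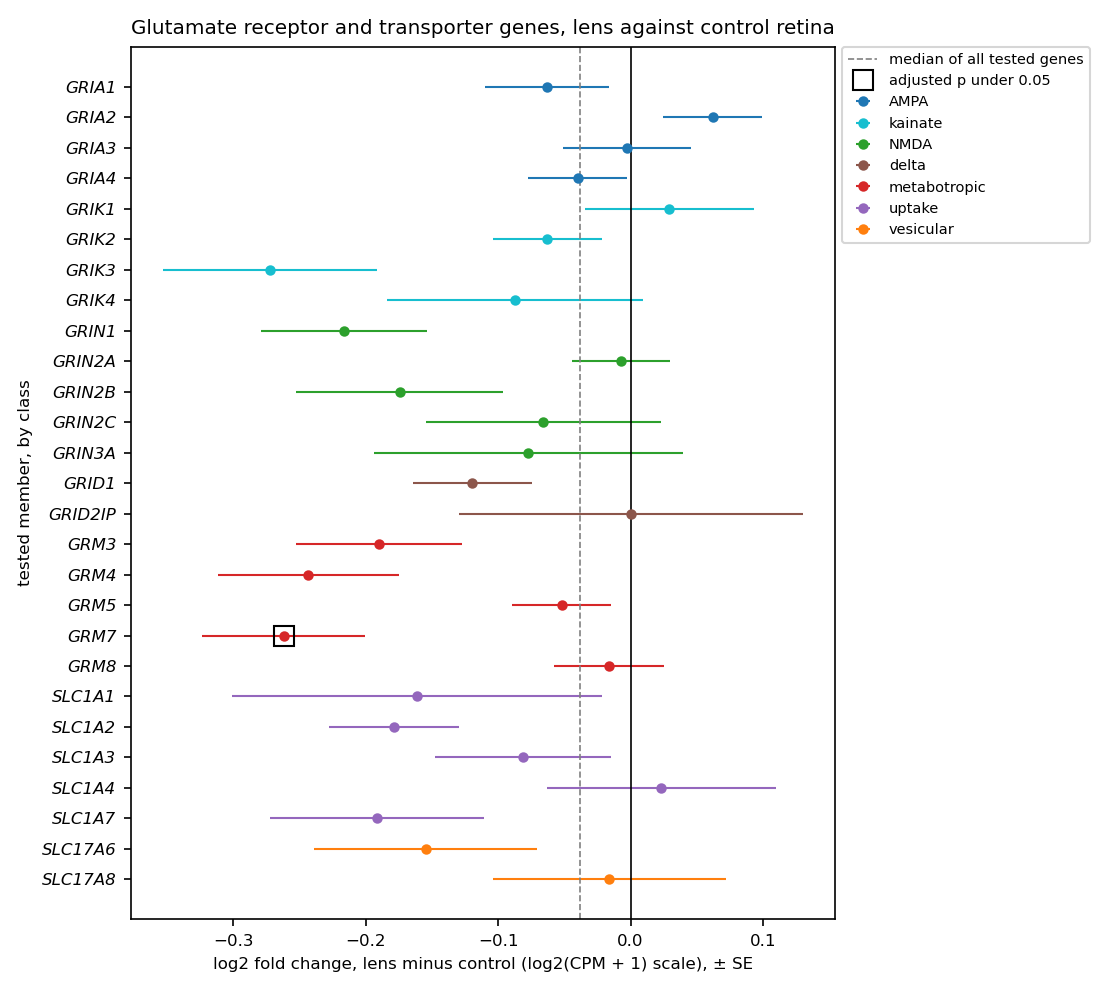
Log2 fold change of each tested member reported here, lens minus control on the log2(CPM + 1) scale, with its standard error (7 retinas a group), by class; the solid line marks 0 and the dashed line the median of all tested genes, -0.038. GRM7, boxed, is the member past an adjusted p of 0.05, and those drawn run from -0.27 (GRIK3) to 0.062 (GRIA2).

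The AMPA receptor genes were the steadiest class. These subunits form the fast channels of most central synapses, and GRIA2 encodes the subunit that, after RNA editing, keeps calcium out. GRIA2 (chromosome 4, 21423354 to 21514471, build GRCg6a) took the most reads of the 4 and had the smallest p. Its lowest, median and highest values were 207, 224 and 244 CPM in lens retinas, against 205, 213 and 225 CPM in control retinas. The groups overlapped broadly, with 3 of 7 lens retinas above every control. Its log2 fold change was 0.062 ± 0.037 (SE, limma adjusted p = 0.442). GRIA1 (chromosome 13) averaged 16.2 CPM ± 0.845 in lens and 16.96 CPM ± 0.782 in control retinas (SD, n = 7 each). GRIA4 (chromosome 1) averaged 97.9 CPM ± 4.24 in lens and 101 CPM ± 4.00 in control retinas (SD, n = 7 each). GRIA3 (chromosome 4) averaged 48.9 CPM ± 3.01 in lens and 49.0 CPM ± 2.98 in control retinas (SD, n = 7 each). None of the 4 passed the test. Within each library, GRIA2 stood in a ratio to the sum of the other 3 that does not depend on scaling. That CPM ratio was 1.27 to 1.44 in lens retinas, with a median of 1.38, and 1.23 to 1.34 in control retinas, with a median of 1.28. In 5 of 7 lens retinas it lay above every control, given as a description without a test, and CPM ratios between genes also carry transcript length.

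The kainate receptor genes differed among themselves. Kainate receptors carry part of the cone signal into OFF bipolar cells in mammals. GRIK1 (chromosome 1, 105502997 to 105663631), which took the most reads of the class, had 149, 170 and 199 CPM as lowest, median and highest lens values, against 146, 172 and 185 CPM in control retinas. The ranges lay over each other, and the log2 fold change was 0.029 ± 0.064 (SE, limma adjusted p = 0.874). GRIK3 (chromosome 23, 4000292 to 4073168), a subunit of low glutamate affinity, had 3.41, 3.83 and 4.32 CPM in lens retinas, against 4.10, 4.91 and 6.15 CPM in control retinas. Lens values lay below every control in 6 of 7 retinas, and lens 54 lay inside the lower control range. The log2 fold change of GRIK3 was -0.27 ± 0.081 (SE, limma adjusted p = 0.0842), the most negative of the members, and it did not pass. With a covariate for W-linked expression it did (adjusted p = 0.0447), and its other alternatives reached up to 0.193. GRIK2 (chromosome 3) averaged 70.0 CPM ± 3.22 in lens and 73.2 CPM ± 3.76 in control retinas (SD, n = 7 each). GRIK4 (chromosome 24), a high-affinity subunit near the lower limit of the test, averaged 1.22 CPM ± 0.271 in lens and 1.36 CPM ± 0.280 in control retinas (SD, n = 7 each).

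Among NMDA receptor genes, the obligatory subunit GRIN1 and the glutamate-binding subunit GRIN2B had lower averages in lens retinas, and GRIN2A was nearly level. Every NMDA receptor needs GRIN1, which binds the co-agonist glycine or D-serine. GRIN1 (chromosome 17, 1365216 to 1396849) had 52.3, 58.98 and 64.01 CPM as lowest, median and highest lens values, against 58.4, 68.8 and 75.0 CPM in control retinas. Lens 47, 48 and 53 lay below every control, the other 4 lens retinas lay within the control range, and all 7 lay below the control median. The log2 fold change of GRIN1 was -0.22 ± 0.063 (SE, limma adjusted p = 0.0769). It passed with a covariate for W-linked expression (adjusted p = 0.0469), while its other alternatives reached up to 0.180. It also passed without lens 55 (adjusted p = 0.0442) and without control 57 (adjusted p = 0.0362). Lens 55 held the highest lens value of GRIN1 and control 57 the lowest control value, so those fits lend no further support. GRIN2A (chromosome 14, 9649750 to 9810955), which took the most reads of the class, had 344, 349 and 379 CPM in lens retinas, against 332, 364 and 381 CPM in control retinas. The lens range of GRIN2A lay inside the control range, and its log2 fold change was -0.0071 ± 0.037 (SE, limma adjusted p = 0.953). GRIN2B (chromosome 1) averaged 40.0 CPM ± 4.49 in lens and 45.3 CPM ± 5.16 in control retinas (SD, n = 7 each), a log2 fold change of -0.17 ± 0.078 (SE, limma adjusted p = 0.275). The ratio of GRIN1 to GRIN2A within a library was 0.138 to 0.184 in lens retinas, with a median of 0.156, and 0.159 to 0.210 in control retinas, with a median of 0.191. It lay below every control in 4 of 7 lens retinas, as a description. GRIN2C (chromosome 18) averaged 2.21 CPM ± 0.380 in lens and 2.35 CPM ± 0.330 in control retinas (SD, n = 7 each). GRIN3A, on the Z chromosome, is described below with the other Z-linked members.

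The delta receptors resemble the other channels in sequence but act mainly as adhesion receptors for secreted cerebellin proteins. GRID1 (chromosome 6, 2365731 to 2955419) had 28.6, 29.8 and 31.6 CPM as lowest, median and highest lens values, against 29.3, 33.6 and 35.0 CPM in control retinas. All 7 lens retinas lay below the control median, and lens 46 and lens 53 lay below every control. Its log2 fold change was -0.12 ± 0.045 (SE, limma adjusted p = 0.184). The scaffold gene GRID2IP (chromosome 14) averaged 5.70 CPM ± 1.27 in lens and 5.70 CPM ± 1.29 in control retinas (SD, n = 7 each).

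Of the 6 tested metabotropic receptor genes, GRM7 fell and 5 did not pass. Group III receptors sit mainly on presynaptic terminals and restrain transmitter release. GRM7 (chromosome 12, 19262298 to 19487340), a group III receptor of low glutamate affinity, had 7.86, 9.35 and 10.2 CPM as lowest, median and highest lens values, against 10.2, 10.9 and 12.5 CPM in control retinas. In 6 of 7 lens retinas it lay below every control, and lens 55, at 10.18 CPM, lay just above control 65, at 10.174 CPM. GRM7 fell by a log2 fold change of 0.26 (-0.26 ± 0.061, SE, limma adjusted p = 0.0251), with means of 9.15 CPM ± 0.770 in lens and 11.2 CPM ± 0.759 in control retinas (SD, n = 7 each). The call was lost with each of 4 other scalings, in the exact permutation test (adjusted p = 0.0519), and without lens 47, 48 or 54 or control 58 or 62. The alternatives that kept all libraries or left out those lacking W-linked transcripts gave GRM7 an adjusted p between 0.0170 and 0.0559. The lowest came when only genes of at least 10 CPM were tested. GRM7 met that limit in all 7 controls but, among lens retinas, only in lens 55, so that fit lends no further support. The next lowest was a limma adjusted p of 0.0171, with array weights. The noncoding gene LOC107054401 lies inside GRM7 on the same strand, at 1.84 CPM ± 0.328 in lens and 1.91 CPM ± 0.315 in control retinas (SD, n = 7 each).

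GRM4 (chromosome 26, 4433927 to 4475128), also of group III, had 19.7, 21.0 and 23.2 CPM as lowest, median and highest lens values, against 19.8, 27.4 and 27.7 CPM in control retinas. The groups overlapped through control 63, at 19.8 CPM, while the other controls began at 23.5 CPM, above every lens retina. The log2 fold change of GRM4 was -0.24 ± 0.068 (SE, limma adjusted p = 0.0677). It passed in 1 of 14 fits that left out a library, that without control 63 (limma adjusted p = 0.00460), with up to 0.129 in the rest. As control 63 alone made the overlap, that fit lends no further support. GRM4 also passed when only genes of at least 10 CPM were tested (adjusted p = 0.0438) and with a covariate for W-linked expression (adjusted p = 0.0435), and the highest adjusted p among its alternatives was 0.154. GRM8 (chromosome 1, 21072255 to 21396653), the group III gene with the most reads, had 83.6, 87.2 and 90.7 CPM in lens retinas, against 77.4, 89.5 and 96.1 CPM in control retinas. All lens values of GRM8 lay inside the control range, with a log2 fold change of -0.016 ± 0.042 (SE, limma adjusted p = 0.897). GRM3 (chromosome 1, 8188208 to 8296972), a group II receptor, had 8.23, 8.92 and 10.9 CPM in lens retinas, against 9.80, 10.7 and 11.2 CPM in control retinas. All but 1 lens retina lay under the lowest control, the exception being lens 55. Its log2 fold change was -0.19 ± 0.063 (SE, limma adjusted p = 0.130). GRM3 passed in 1 of 14 fits that left out a library, that without lens 55 (adjusted p = 0.0300), with up to 0.238 in the rest. As lens 55 alone made the overlap, that fit lends no further support. GRM3 also passed without the 3 libraries that lack W-linked transcripts, lens 55 among them (adjusted p = 0.0454), against up to 0.264 in its other alternatives.

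GRM5 (chromosome 1), a group I receptor, which couples to phospholipase C, averaged 55.5 CPM ± 1.94 in lens and 57.6 CPM ± 2.58 in control retinas (SD, n = 7 each).

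**Figure D2:**
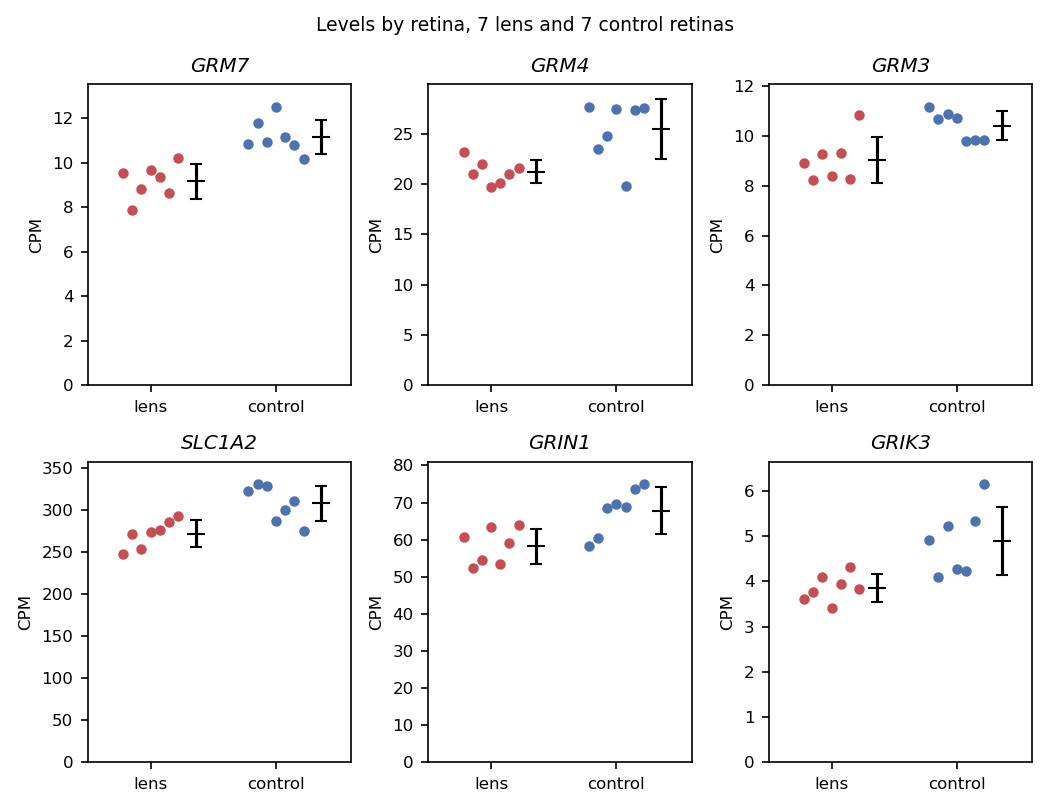
CPM of 6 members in each lens retina (left, red) and control retina (right, blue), with the mean and SD (n = 7) beside each group, on axes that start at 0. GRM7, GRM3 and GRIK3 lie below every control in 6 of 7 lens retinas each, SLC1A2 in 4, GRIN1 in 3 and GRM4 in 1, where control 63 sets the lower limit.

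The uptake transporters end glutamate signals. SLC1A2 (chromosome 5, 19252625 to 19337409), known in mammalian retina from cone and bipolar cells, had 248, 274 and 293 CPM as lowest, median and highest lens values, against 276, 311 and 331 CPM in control retinas. Lens 46, 47, 48 and 51 lay below every control, and all 7 lay below the control median. The log2 fold change of SLC1A2 was -0.18 ± 0.049 (SE, limma adjusted p = 0.0620). It passed without lens 55 (adjusted p = 0.0351), without control 65 (adjusted p = 0.0268), without the 3 libraries that lack W-linked transcripts (adjusted p = 0.0369), when only genes of at least 10 CPM were tested (adjusted p = 0.0398) and with array weights (adjusted p = 0.0273). Lens 55 held the highest lens value, 293 CPM, and control 65 the lowest control value, 276 CPM. The fits that left out either or both of them therefore lend no further support. The alternatives of SLC1A2 spanned adjusted p-values between 0.0273 and 0.215. SLC1A7 (chromosome 8), a transporter of photoreceptor and bipolar terminals with a large chloride conductance, averaged 19.0 CPM ± 2.01 in lens and 21.9 CPM ± 2.89 in control retinas (SD, n = 7 each, limma adjusted p = 0.246). It overlaps PODN on the other strand, at 7.15 CPM in lens and 7.23 CPM in control retinas, and the strand setting of the counting is not given in the sources used here. SLC1A4 (chromosome 3), an exchanger of neutral amino acids, averaged 87.8 CPM ± 10.1 in lens and 86.6 CPM ± 10.9 in control retinas (SD, n = 7 each). Its control values held 1 low sample, control 58 at 63.1 CPM, with the next at 84.9 CPM.

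SLC1A1 divided the libraries by their W-linked transcripts, and it did not pass the test between lens and control retinas. SLC1A1 (chromosome Z, 27065545 to 27125162), the neuronal glutamate transporter that also takes up cysteine, had 17.4, 27.8 and 28.8 CPM as lowest, median and highest lens values, against 17.2, 30.4 and 33.1 CPM in control retinas. Lens 48, lens 55 and control 65, the libraries without W-linked transcripts, had 17.2 to 18.5 CPM, and the other 11 had 27.1 to 33.1 CPM, so these sets did not overlap. Across all 14 retinas the log2 fold change between lens and control was -0.16 ± 0.14 (SE, limma adjusted p = 0.624). Without those 3 libraries it was -0.093 ± 0.053 (SE, limma adjusted p = 0.438), with means of 28.2 CPM ± 0.594 in 5 lens retinas and 30.2 CPM ± 2.02 in 6 control retinas (SD). The lowest, median and highest values there were 27.4, 28.1 and 28.8 CPM in lens and 27.1, 30.5 and 33.1 CPM in control retinas.

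Male birds carry a pair of Z chromosomes and hens a single one, and most Z genes ran the other way. Of 554 tested Z genes, 334 were higher in the 3 libraries than in all 11 others and 13 were lower, SLC1A1 among them, with a median ratio of 1.39. The ratio of SLC1A1 was 0.605. These sets were read from the data and not from the labels, and no test was made between them. SLC1A1 lies in a stretch of chromosome Z with other genes of this kind. Between 27157605 and 27398263, next to SLC1A1, the table lists only unnamed loci, of which LOC100859072 (27313208 to 27329640) was at 0.0310 to 0.319 CPM in the 3 libraries and 71.0 to 83.1 CPM in the 11 others. CDC37L1, AK3 and RCL1, which come next, overlapped between the sets. Beyond them JAK2, a cytokine receptor kinase (27532802 to 27618275), was at 41.2 to 47.9 CPM in the 3 and 52.5 to 64.1 CPM in the 11. On the other side RFX3 (26666003 to 26796795), a ciliary transcription factor, overlapped between the sets. As background, chicken Z holds a locus, known as male hypermethylated, whose noncoding RNA is made in hens. The table names none of the listed loci as that locus.

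SLC1A3 (chromosome Z, 11170339 to 11234916), the transporter of Müller glia, had 224 to 253 CPM in the 3 libraries without W-linked transcripts and 246 to 314 CPM in the others, a ratio of 0.850 with overlap. It averaged 266 CPM ± 30.8 in lens and 280 CPM ± 19.98 in control retinas (SD, n = 7 each, limma adjusted p = 0.595). GRIN3A (chromosome Z, 65210337 to 65277959), a glycine-binding NMDA subunit, went with the majority of Z genes, with 3.53 to 4.98 CPM in the 3 and 2.48 to 4.12 CPM in the others, a ratio of 1.38 with overlap. It averaged 3.26 CPM ± 0.616 in lens and 3.52 CPM ± 0.849 in control retinas (SD, n = 7 each, limma adjusted p = 0.809).

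**Figure D3:**
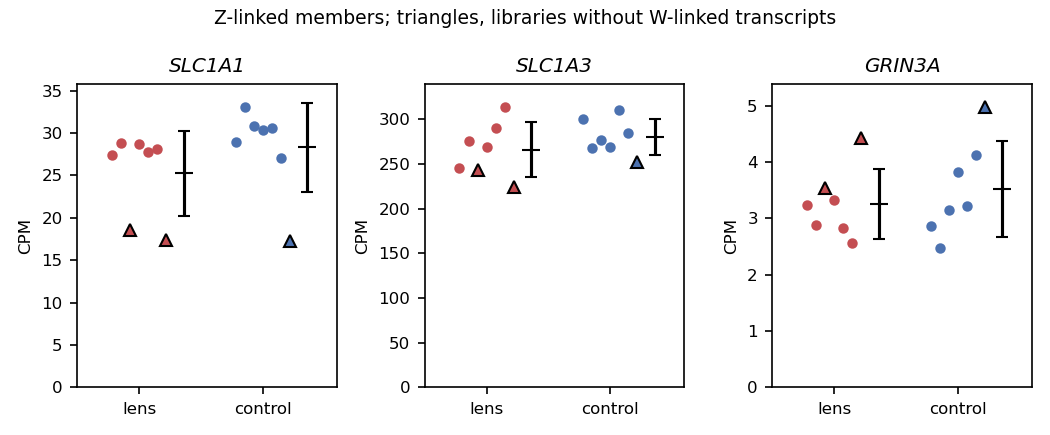
CPM of the 3 Z-linked members in lens (left, red) and control (right, blue) retinas, with the mean and SD (n = 7); triangles are the 3 libraries without W-linked transcripts. SLC1A1 is at 17.2 to 18.5 CPM in these 3 and at 27.1 to 33.1 CPM in the other 11, in both groups.

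The vesicular transporters load glutamate into vesicles. SLC17A6 (chromosome 5, 3033148 to 3064881), the form of ganglion cells, had 47.1, 53.1 and 61.9 CPM as lowest, median and highest lens values, against 49.9, 54.4 and 77.9 CPM in control retinas. The groups overlapped, 3 of 7 lens retinas were below every control, and control 64 was far above the other controls. The log2 fold change was -0.15 ± 0.084 (SE, limma adjusted p = 0.385), and without control 64 it was -0.086. SLC17A8 (chromosome 1), known from a subset of amacrine cells in mammals, averaged 6.72 CPM ± 0.669 in lens and 6.84 CPM ± 1.09 in control retinas (SD, n = 7 each, limma adjusted p = 0.955).

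A further 3 members were too low to test, since they did not reach 1 CPM in 7 samples. GRM2 (chromosome 12), a group II receptor, averaged 0.393 CPM ± 0.0729 in lens and 0.591 CPM ± 0.125 in control retinas (SD, n = 7 each). The glycine-binding NMDA subunit GRIN3B (chromosome 28) averaged 0.123 CPM ± 0.0416 in lens and 0.216 CPM ± 0.102 in control retinas (SD, n = 7 each). It overlaps TMEM259 on the other strand, at 12.0 CPM in lens and 13.3 CPM in control retinas, so the small GRIN3B value is uncertain. SLC1A6 (chromosome 28), a transporter known from Purkinje cells in mammals, averaged 0.193 CPM ± 0.110 in lens and 0.177 CPM ± 0.0921 in control retinas (SD, n = 7 each). GRIN3B and SLC1A6 rested on few reads, with as few as 2 and 1 in a library.

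The median member varied less between retinas than the median tested gene, a comparison not matched for expression level. The coefficient of variation over the 7 control retinas had a median of 7.85% over tested members, beside 11.2% over all tested genes. It ran from 3.26% (GRIA2) to 24.1% (GRIN3A). The highest of 14 values was 1.15 times the lowest for GRIN2A and 2.01 times for GRIN3A, with a median of 1.40 over members and 1.51 over all tested genes. By class, apart from the delta genes, the median control variation was 4.29% for AMPA, 6.64% for metabotropic, 11.4% for NMDA, 11.5% for kainate, 12.6% for uptake and 15.9% for vesicular genes. Single libraries differed in how often they set the extremes. Control 65 was the highest of 14 for 9 of 29 members and for 9.64% of all tested genes, and its median deviation from the members' means was 0.11 on the log2 scale, beside 0.024 over all tested genes. Lens 48 was the lowest for 5 members and for 9.66% of all tested genes, with a median deviation of -0.076, beside -0.040 over all tested genes. Lens 55 was the 1 lens library whose median deviation over members, 0.012, was above 0, beside 0.017 over all tested genes. The members' median log2 fold change was -0.053 without control 65 and -0.072 without lens 55.

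**Figure D4:**
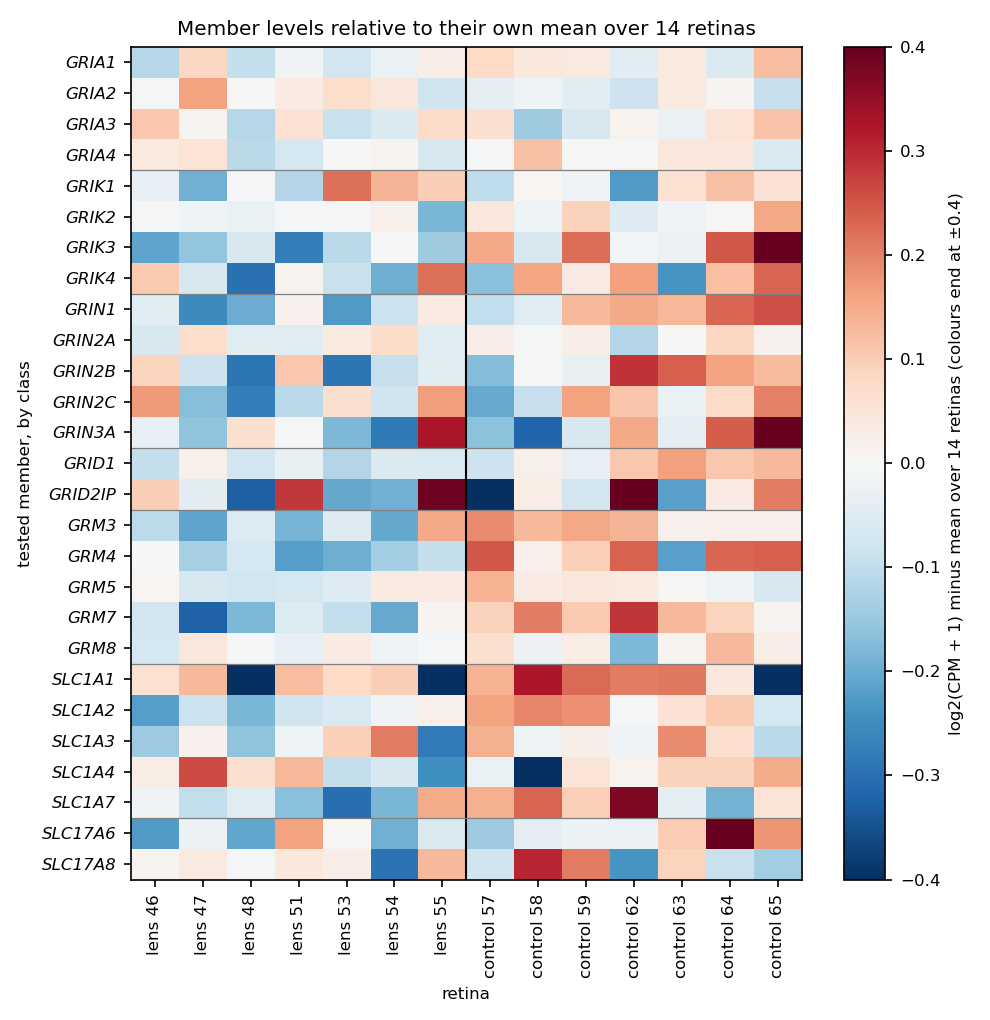
Log2(CPM + 1) of each tested member reported here minus its own mean over 14 retinas, with the 7 lens retinas on the left and the 7 controls on the right; colours end at ±0.4. The low SLC1A1 values of lens 48, lens 55 and control 65, at 17.2 to 18.5 CPM, stand out.

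Genes that work with these receptors and transporters were counted in 5 lists, of which 46 genes were tested, 4 fell and 0 rose in limma, beside 1.84% lower and 0.916% higher of all tested genes. At an unadjusted p under 0.05, 15 of the 46 were lower and 1 was higher, beside 12.5% lower and 3.67% higher of all tested genes. In the glutamate metabolism list, 2 of 10 fell and 8 did not pass, with a median log2 fold change of -0.11. SLC38A1, which brings glutamine into neurons, had 114, 120 and 130 CPM in lens retinas, against 131, 138 and 153 CPM in control retinas. The groups did not overlap, and the log2 fold change was -0.18 ± 0.044 (SE, limma adjusted p = 0.0398), a call that 6 of 14 fits with a library removed and 8 of 14 alternatives kept. GLUL, the glial enzyme that turns glutamate back into glutamine, had a log2 fold change of -0.042 (limma adjusted p = 0.871).

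In the list of the mGluR6 cascade, by which ON bipolar cells answer glutamate, 2 of 10 fell and 8 did not pass, with a median of -0.10. The receptor gene GRM6 itself was not analysed here. ELFN1, a synaptic adhesion protein that in mice binds group III metabotropic receptors across the cleft, had 10.2, 13.4 and 15.5 CPM in lens retinas, against 15.0, 17.4 and 19.9 CPM in control retinas. It lay below every control in 6 of 7 lens retinas, with a log2 fold change of -0.42 ± 0.089 (SE, limma adjusted p = 0.0139). RGS9BP, which anchors G protein deactivating complexes in bipolar cells and also in photoreceptors, had 223, 240 and 270 CPM in lens retinas, against 261, 309 and 357 CPM in control retinas. All lens retinas but 1 lay under the lowest control, with a log2 fold change of -0.36 ± 0.068 (SE, limma adjusted p = 0.00575). The exact permutation test passed only genes whose groups did not overlap, so ELFN1 and RGS9BP each missed its threshold (adjusted p = 0.0519). The effector channel TRPM1 had a log2 fold change of -0.11 ± 0.037 (SE, limma adjusted p = 0.143). At a limma unadjusted p under 0.05, 5 of the 10 tested genes were lower and 1, RGS7, was higher. Of all tested genes, 12.5% were lower and 3.67% higher by that rule. RGS7 had a log2 fold change of 0.17 ± 0.059 (SE, limma adjusted p = 0.152).

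None of 9 tested AMPA receptor auxiliary genes passed in limma, with 3 lower at an unadjusted p under 0.05 and a median of -0.17. The smallest p there was that of CACNG4, a TARP subunit, with 5.06 CPM ± 0.307 in lens and 5.98 CPM ± 0.376 in control retinas (SD, n = 7 each, limma adjusted p = 0.0752). Its groups did not overlap, so it passed in the exact permutation test (adjusted p = 0.0382), as every such gene did. None of 15 postsynaptic scaffold genes passed in limma, with 2 lower at an unadjusted p under 0.05 and a median of -0.046, and SHANK2 had the smallest p (limma adjusted p = 0.155). Neither kainate auxiliary gene passed in limma, with 1 lower at an unadjusted p under 0.05, NETO2 at -0.13 (limma adjusted p = 0.244). The medians of these lists stand beside -0.038 for all tested genes, and their counts at an unadjusted p under 0.05 beside 12.5% lower.

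**Figure D5:**
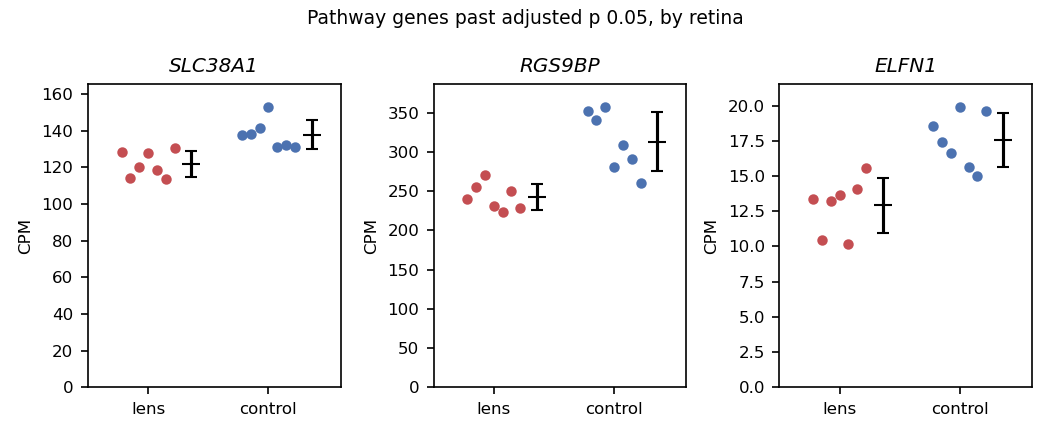
CPM of SLC38A1, RGS9BP and ELFN1, pathway genes that passed, in each lens retina (left, red) and control retina (right, blue), with the mean and SD (n = 7). Lens values of SLC38A1 all lie below the controls, and those of RGS9BP and ELFN1 do so in 6 of 7 retinas.

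Markers of retinal cell types moved with the lens in part, and their part in the values above was not tested. Of all tested genes, 1.84% fell and 0.916% rose in limma. At an unadjusted p under 0.05, 12.5% of them were lower and 3.67% higher. Of 8 amacrine markers 3 fell, TFAP2B, SLC6A9 and SLC32A1, and the list's summed level was 466 to 504 CPM in lens and 509 to 567 CPM in control retinas. By the unadjusted rule, 6 of the 8 amacrine markers were lower and 0 were higher. TFAP2B and SLC32A1 kept their calls in all 14 fits that omitted a library and in 9 and 10 of 14 alternatives, and SLC6A9 kept its call in 4 of the 14 fits and 6 of the alternatives. Of 8 photoreceptor markers 2 fell, the cone genes ARR3 and PDE6C, and OPN1LW, also a cone gene, rose. By the unadjusted rule, 4 of the 8 photoreceptor markers were lower and 2 were higher. PDE6C kept its call in all 14 alternatives, ARR3 in 13 and OPN1LW in 12. The 1 of 8 ganglion cell markers that fell was NEFM, called in 13 of 14 alternatives, with a summed level of 187 to 242 CPM in lens and 213 to 265 CPM in control retinas. By the unadjusted rule, 4 of the 8 ganglion cell markers were lower and 0 were higher. None of 6 bipolar markers passed in limma, with 3 lower at an unadjusted p under 0.05 and TRPM1 nearest, and their sum was 369 to 413 CPM in lens and 397 to 440 CPM in control retinas. None of 5 horizontal cell markers passed in limma, with 2 lower at an unadjusted p under 0.05 and LHX1 nearest (limma adjusted p = 0.0656), and their sum was 189 to 221 CPM in lens and 191 to 222 CPM in control retinas. None of 6 tested Müller glia markers passed in limma, with 0 at an unadjusted p under 0.05 and VIM nearest (limma adjusted p = 0.495).

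Markers from outside the neural retina were not all low, and no tested one passed in limma. Of retinal pigment epithelium genes 2 were tested and did not pass, MITF being the nearer (limma adjusted p = 0.446), and RPE65 was at 1.54 to 4.99 CPM over all 14 libraries. MITF itself was at 15.3 to 20.03 CPM over all 14 libraries. Of oligodendrocyte genes 2 were tested and did not pass. The summed level of that list was 110 to 203 CPM in lens and 115 to 221 CPM in control retinas. Of 3 tested immune genes PTPRC was nearest (limma adjusted p = 0.875), and of 2 tested vascular genes PECAM1 (limma adjusted p = 0.504). In these 4 lists 0 genes reached an unadjusted p under 0.05 in limma. PECAM1 was at 12.3 to 22.9 CPM and KDR, the other tested vascular gene, at 32.1 to 48.9 CPM over all 14 libraries. CLDN5, an endothelial marker, reached at most 0.0532 CPM. None of the 9 red blood cell symbols matched a row, so that list gave no value.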

How the data were processed

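Per the labels' protocols, a stranded kit with ribosomal RNA depletion turned column-purified total RNA into libraries. STAR, Partek and the build GRCg6a are named in the submitters' processing notes, while neither counting method nor strand setting is given there. The authors deposited 1 table of normalized values, read here as CPM with 0.0001 added to each entry. The listed genes held 31.74% to 33.25% of the scaling total in lens libraries (mean 32.65%) and 32.89% to 34.17% in control libraries (mean 33.4%). Between 92.9% and 94.1% of low values lay within 0.02 of a whole read, too few for a count model. The closest pair of replicates had a chi-square of 5.93 per gene, with 1 for counting noise alone, so all 14 were kept.

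Groups came from the sample titles, which share no replicate number. Genes that reached 1 CPM in 7 or more of 14 samples were fitted with limma (version 3.58.1, R version 4.3.3) on log2(CPM + 1) with an intensity trend, which was also tested on simulated data. P-values were adjusted over all 11132 genes. Adding 1 understates the changes of low genes. The results of some genes are not reported here, though counts and medians over members and lists include them. Per-sample summaries are given for members past the threshold and, in each class, for the gene with the most reads and the gene with the smallest p. Summaries of GRM4, GRM3 and the Z-linked members, and the loci named beside SLC1A1, were chosen after their values were seen. List genes past the threshold, or the one with the smallest p, are named. TRPM1, RGS7, GLUL, RPE65, KDR and CLDN5 were added after their values were seen. The ranges of MITF and PECAM1 and the sum of the oligodendrocyte list were added in the same way. Members, lists and tests were chosen with earlier results of these data known. Each deposited sequence name was given the chromosome that most of its gene symbols have in the RefSeq gene table of GRCg7b, coordinates are as deposited on GRCg6a, and transcript lengths were not used here, so levels were not compared between genes. Figures were drawn with matplotlib (version 3.10.9, Python version 3.11.15). Alternatives numbered 14, besides 14 fits that left out 1 library.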

Additional observations from a re-analysis of the deposited data

Results flagged for a closer look

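In 5 of 64 sets of 7 values (32 members in each group), 1 retina stood apart from the others by Dixon's criterion for 7 samples, in which the gap to the nearest value is set against the whole range. Chance alone flags about 1 set in 20. GRIK2 was 62.9 CPM in lens 55, with the next lens value at 70.2 CPM. GRM3 was 10.9 CPM in the same retina, with the next lens value at 9.30 CPM. SLC17A8 was 5.31 CPM in lens 54, with the next at 6.69 CPM. SLC1A1 was 17.2 CPM in control 65, with the next control at 27.1 CPM, and control 65 is the control library without W-linked transcripts. SLC1A4 was 63.1 CPM in control 58, with the next control at 84.9 CPM. Without lens 55 the log2 fold change of GRIK2 was -0.038, against -0.063 with all retinas. Without control 58 that of SLC1A4 was -0.050, against 0.023 with all retinas. Without lens 54 that of SLC17A8 was 0.032, against -0.016 with all retinas.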

How the results depend on the processing

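The count of lower members was 1. It was 0 with a common sum over listed genes, quantile normalization, TMM factors, median-of-ratios factors and the exact permutation test. It was 2 with array weights, 3 with a filter of 10 CPM or without the libraries that lack W-linked transcripts, and 4 with a covariate for W-linked expression. Those with a filter of 10 CPM include GRM7, which met that filter through the controls. Leaving out 1 library gave a count of 0 to 4. It was 0 without lens 47, 48 or 54 or control 58 or 62, 2 without control 57, 63 or 65, and 4 without lens 55. Each member added in those fits had lost its highest lens or its lowest control value, so they lend no further support. No alternative called a member higher. Over all genes 205 were lower, and 112 with TMM factors, 104 with median-of-ratios factors, 122 with quantile normalization, 129 with a common sum and 108 in the exact permutation test, with 146 to 324 leaving out 1 library (324 without lens 55). Higher genes numbered 102, and 154 with median-of-ratios factors, 157 with quantile normalization and 62 in the exact permutation test, with 83 to 110 leaving out 1 library. Pathway list genes lower numbered 4, and 2 in the exact permutation test, with 3 to 6 leaving out 1 library. Cell type list genes lower numbered 6, then 3 with median-of-ratios factors, quantile normalization or without the libraries that lack W-linked transcripts, and 2 in the exact permutation test, with 5 to 7 leaving out 1 library. Those higher numbered 1, then 2 with TMM factors, median-of-ratios factors, quantile normalization or the common sum, and 0 with a robust prior or in the exact permutation test, with 1 to 2 leaving out 1 library. The adjusted p of GRM7 was 0.0505 with TMM factors, 0.0559 with median-of-ratios factors, 0.0543 with quantile normalization and 0.0558 with a common sum, and 0.0157 to 0.0568 leaving out 1 library. The cause was not tested.

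Members that did not pass changed sign in places. With TMM factors, with median-of-ratios factors, with quantile normalization and with a common sum, in that order, log2 fold changes were 0.036, 0.040, 0.035 and 0.030 for GRIA3, 0.032, 0.036, 0.030 and 0.026 for GRIN2A, 0.023, 0.026, 0.015 and 0.017 for GRM8, and 0.018, 0.021, 0.030 and 0.013 for SLC17A8. GRIA4 was 0.0028 with median-of-ratios factors. GRIA3 was 0.0040 with array weights and 0.0054 with a covariate for the code letter. Without the libraries that lack W-linked transcripts GRIA3 was 0.023 and GRIN2A 0.013. GRID2IP was -4.4e-05 with a pseudocount of 5 and -0.016 with a covariate for W-linked expression. Leaving out 1 library gave ranges across 0 for GRIA3 (-0.027 to 0.017), GRID2IP (-0.068 to 0.072), GRIK1 (-0.0062 to 0.063), GRIN2A (-0.028 to 0.0058), GRM8 (-0.047 to 0.0039), SLC17A8 (-0.057 to 0.033), SLC1A4 (-0.050 to 0.066) and PTPRC (-0.017 to 0.074). No paired analysis was possible because the groups share no replicate number. Depth limits GRIN3B and SLC1A6.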
